A study of Schmidtea mediterranea with 40 samples.

Results

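At posterior-facing wounds labelled 24 hpa (hours post amputation), RNA was sequenced from planarians in which *activin-2* had been inhibited by RNA interference and from their controls. These wounds are described here by 6 of the 40 bulk RNA sequencing libraries of the series, chosen by their labels alone, 3 from *activin-2* RNAi animals and 3 from control RNAi animals. All were *Schmidtea mediterranea* of the CIW4 strain, given dsRNA in 4 feedings within 14 days, and were cut when 7 days had passed since the last. The control dsRNA was made from *unc-22*, a gene of the nematode *Caenorhabditis elegans*. Each library pooled the fragments behind the pharynx (post-pharyngeal) from 5 wounds, and the labels do not say whether the 3 libraries of an arm came from separate animals or cultures, so the p-values measure the spread between these libraries. The other 34 libraries, at wounds labelled 0, 6, 18 and 48 hpa, serve below to show where the wounds labelled 24 hpa differed.

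Activins are secreted ligands of the TGF-β family that act through a receptor kinase on the cell surface and are bound and held inactive by Follistatin. In planarians, muscle cells express the genes that tell tissue where it lies along the body. Wnt ligands are expressed towards the tail, and Wnt inhibitors of the sFRP family and several *nou-darake-like* (*ndl*) genes are expressed further forward. After amputation, wound-induced genes come first, and these position genes are then reset in the remaining tissue.

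Levels are given in RPM, the reads of a contig per 1000000 counted reads of its library. The 6 libraries held between 9433327 and 11820494 counted reads, so that 1 read corresponded to 0.0846 to 0.106 RPM. In a principal component analysis of the 6, the first component held 58.2% of the variance and separated the arms. Of the 34 other libraries, those labelled *activin-2* RNAi at 18 hpa held the target at 25.8 to 85.8 RPM (anterior-facing) and 3.63 to 70.1 RPM (posterior-facing), whereas the 9 labelled 0, 6 or 48 hpa held it at 2.25 to 5.55 RPM. The 6 libraries labelled 24 hpa had the lowest levels of wound-induced genes in the series. *fos-1*, an immediate early transcription factor gene, stood at 74.3 to 99.2 RPM in the 6 and at 131 to 304 RPM in the other 34. Summed over the 127 counted contigs of the study's list of wound-induced genes, the level was 5019 to 6384 RPM in the 6 and 6543 to 15387 RPM in the other 34. For 24 of these 127 contigs, all 6 libraries lay below all 34 others, and for 0 contigs above, against 0.833% below among all contigs tested. The time is therefore given as labelled throughout, and whether the 6 libraries were taken from freshly cut tissue was not tested.

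The target itself was low in each *activin-2* RNAi library. *activin-2* stood at 4.03, 4.48 and 2.30 RPM in *activin-2* RNAi, against 51.2, 48.3 and 54.0 RPM in control RNAi. The arms did not overlap, and the log2 fold change was -3.91 ± 0.16 (standard error, n = 3 libraries per arm, adjusted p = 5.4e-08, from edgeR's quasi-likelihood fit, adjusted by Benjamini-Hochberg across the 16200 contigs tested, as for every adjusted p below unless stated). Its difference of effects, explained below, was -1.13 ± 0.69 (adjusted p = 0.326). The Activin receptor gene *ActR-1* (90.9, 93.7 and 89.6 RPM in *activin-2* RNAi, against 85.7, 73.6 and 75.3 RPM in control RNAi) did not pass the threshold, with a log2 fold change of 0.08 ± 0.08 (adjusted p = 0.543).

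The arms differed widely, and in the main fit more contigs were called lower than higher. Of 16200 contigs tested, 2020 (12.5%) passed an adjusted p of 0.05, with the *activin-2* RNAi level higher for 731 (4.51%) and lower for 1289 (7.96%). Beyond a log2 fold change of 1 in either direction, 80 contigs were higher and 348 lower. The contigs that fell by more than this had a summed level of 36153, 30995 and 33545 RPM in *activin-2* RNAi, against 98777, 95550 and 74917 RPM in control RNAi. They were picked by their fall in these same libraries, so the direction of the sum was fixed and only its size is described. The higher and lower shares depended on the scaling. With library size in place of TMM, which moved the median log2 fold change of all contigs to 0.16, against 0.02 with TMM, 2459 contigs were called higher and 833 lower. The calls came to 3050 without control RNAi replicate 3 and to 998 without control RNAi replicate 2. The plot of fold change against level shows these changes across all contigs.

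**Figure D1:**
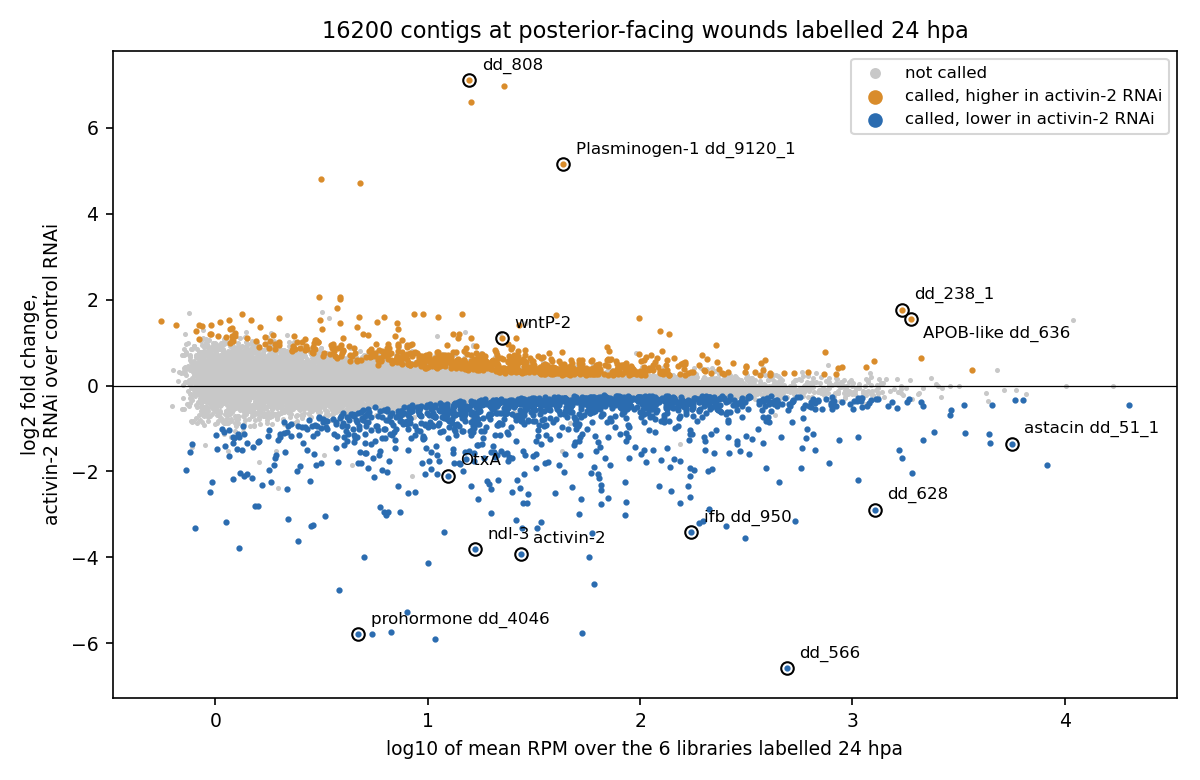
Each point is 1 of 16200 contigs; the horizontal axis is the log10 of the mean RPM over the 6 libraries labelled 24 hpa and the vertical axis the log2 ratio, activin-2 RNAi to control RNAi. Orange points were called higher (731) and blue points lower (1289) at an adjusted p of 0.05; the deepest labelled fall is dd_566 at -6.59 and the largest labelled rise dd_808 at 7.11.

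In their own fits the other labelled times had fewer calls, with 176 contigs higher (1.09%) and 507 lower (3.13%) at 0 hpa, 122 (0.738%) and 208 (1.26%) at 6 hpa, 515 (3.15%) and 944 (5.78%) at 18 hpa, and 78 (0.496%) and 289 (1.84%) at 48 hpa, all posterior-facing except 0 hpa, whose orientation the labels do not give. To test whether a change differed from those times, the *activin-2* RNAi effect labelled 24 hpa was set against the mean effect at wounds labelled 0, 6, 18 (posterior-facing) and 48 hpa in 1 fit of all 12 groups. This difference of effects passed for 1205 of 18350 contigs (6.57%), 397 of them positive (2.16%) and 808 negative (4.4%). Of the 2019 contigs that were called labelled 24 hpa and could be tested for the difference, 750 were also called for it, 748 with the same sign. Leaving out the groups labelled 18 hpa, an alternative added after seeing the data, gave 1256 contigs. The knockdown libraries stood apart from their counterparts less often than the controls did. Among the 2020 called contigs, all 3 *activin-2* RNAi libraries lay outside the range of the 13 other *activin-2* RNAi libraries at these labelled times for 93 (4.60%), whereas all 3 control RNAi libraries lay outside the range of the 13 other control RNAi libraries for 694 (34.4%). Among all contigs tested these shares were 3.94% (639 contigs) for *activin-2* RNAi and 13.8% (2230 contigs) for control RNAi. The 13 other *activin-2* RNAi libraries include the 4 labelled 18 hpa, which held the target at 3.63 to 70.1 RPM. The 2 ranges are therefore not alike, and whether this widened the *activin-2* RNAi range was not tested. The controls labelled 24 hpa also lay outside the range of the other controls in the position genes *ndl-3*, *wntP-2* and *wnt11-1*, and in the homeobox gene *OtxA*, given below. Against the controls labelled 0, 6 and 48 hpa they also stood apart in dd_16209 and in most of the frizzled and HOX-matched contigs below. Whether the tissue of these controls was cut at another level of the body was not tested. Less RNA per cell and fewer cells of a type cannot be told apart in these bulk libraries.

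The largest fall in fitted log2 fold change was in dd_566, a contig with no annotated match. It stood at 14.2, 6.58 and 12 RPM in *activin-2* RNAi, against 1283, 957 and 679 RPM in control RNAi. It was thus among the abundant transcripts in all 3 controls and in none of the knockdown libraries, with a log2 fold change of -6.59 ± 0.30 (adjusted p = 1.3e-07). In the 13 other control RNAi libraries at posterior-facing wounds it stood at 1.30 to 34.4 RPM, and its difference of effects was -6.81 ± 0.71 (adjusted p = 1.2e-08). The fit adds a prior count of 2, which pulls fold changes towards 0 where reads are few. By reads, contigs such as dd_7340 and dd_5811, given below, fell by larger ratios.

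Most of the other contigs with the deepest falls followed the same pattern. dd_240 stood at 3.00, 1.2 and 1.53 RPM in *activin-2* RNAi, against 122, 101 and 92.1 RPM in control RNAi (log2 fold change -5.77 ± 0.22), and dd_331 at 7.98, 1.59 and 5.2 RPM, against 153, 113.3 and 84.8 RPM (-4.63 ± 0.34). Both lack an annotation. dd_13594 and dd_9223, also unannotated, varied most among the controls. dd_13594 stood at 0.0858, 0.299 and 0.256 RPM in *activin-2* RNAi, against 5.72, 21.6 and 36.7 RPM in control RNAi (log2 fold change -5.89 ± 0.81, and -5.29 without control RNAi replicate 3), and dd_9223 at 0.172, 0.299 and 0.341 RPM, against 3.5, 17.7 and 26 RPM (-5.26 ± 0.79). In control RNAi replicate 1 both stood lowest among the controls, still above every knockdown library. dd_7340 had 1 read in all 3 *activin-2* RNAi libraries and 358 in control RNAi, a ratio of control RNAi over *activin-2* RNAi of 372.5 after scaling by depth (95% exact interval 66.4 to 14752, which covers counting error only). dd_5811 had 3 reads in *activin-2* RNAi and 443 in control RNAi, a ratio of 154 (52.2 to 748). The difference of effects was negative and called for dd_240, dd_331, dd_13594, dd_9223 and dd_5811, although for dd_9223 it was no longer called without the groups labelled 18 hpa (adjusted p = 0.0882). dd_7340 held 0 to 0.54 RPM in all other posterior-facing libraries of either arm, and its difference could not be resolved (adjusted p = 1).

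The position genes *ndl-3* and *ndl-5* fell. *ndl-3*, of the FGF-receptor-like *nou-darake* family and expressed in the trunk of planarians, stood at 3.17, 1.79 and 1.79 RPM in *activin-2* RNAi, against 25.5, 33.3 and 34.2 RPM in control RNAi. Its log2 fold change was -3.81 ± 0.19 (adjusted p = 1.9e-07), with no overlap, and it was named after its values were seen, like the frizzled and homeobox genes below other than dd_14633 and dd_16227. *ndl-5* (dd_5102), expressed in the planarian head, stood at 33.0, 24.8 and 24.9 RPM, against 81.8, 95.8 and 102.9 RPM, with a log2 fold change of -1.89 ± 0.12 (adjusted p = 1.2e-06). The 13 other control RNAi libraries held *ndl-3* at 0.231 to 14.6 RPM and *ndl-5* at 15.4 to 45.4 RPM, so in both genes the 3 controls labelled 24 hpa lay above the other controls and the 3 knockdown libraries lay within their range.

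The Wnt inhibitor genes *sFRP-1* and *sFRP-2* fell. *sFRP-1*, a gene of the head tip, stood at 1.97, 1.39 and 0.511 RPM in *activin-2* RNAi, against 3.82, 4.59 and 5.58 RPM in control RNAi (log2 fold change -1.86 ± 0.34, adjusted p = 0.0026). *sFRP-2* (dd_8832) stood at 12, 13.9 and 12.3 RPM, against 36.6, 39 and 36.2 RPM (-1.68 ± 0.10, adjusted p = 6.9e-07). The arms did not overlap for either, which for *sFRP-2* was a condition of being named. In the 13 other control RNAi libraries *sFRP-1* stood at 1.93 to 6.35 RPM, a range that takes in the controls labelled 24 hpa, and *sFRP-2* at 7.57 to 12.9 RPM, so its controls labelled 24 hpa were high and its knockdown libraries were near the top of that range or just above it. dd_13487, a Wnt ligand whose best human match is WNT2B, also fell, with 3.17, 2.29 and 2.04 RPM in *activin-2* RNAi, against 12.3, 13.1 and 15.5 RPM in control RNAi (-2.50 ± 0.18, adjusted p = 3.2e-06), where the 13 other control RNAi libraries held 0.925 to 9.20 RPM.

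Other Wnt ligands rose. *wntP-2* (dd_7326), which is graded towards the tail, stood at 28.5, 37.5 and 28.1 RPM in *activin-2* RNAi, against 12.8, 12.2 and 14.4 RPM in control RNAi (log2 fold change 1.1 ± 0.13, adjusted p = 1.6e-04). *wnt11-1* (dd_14391), a tail gene, stood at 9.09, 11.3 and 8.26 RPM in *activin-2* RNAi, against 6.36, 1.01 and 1.18 RPM in control RNAi (1.6 ± 0.47, adjusted p = 0.039). dd_16209, a Wnt with best human match WNT4, stood at 5.06, 7.37 and 6.73 RPM in *activin-2* RNAi, against 3.60, 0.367 and 0.0846 RPM in control RNAi (2.06 ± 0.62, adjusted p = 0.038). For the last 2 genes control RNAi replicate 1 stood nearer to the knockdown libraries than to the other controls. Without it the log2 fold changes were 2.80 (*wnt11-1*) and 3.94 (dd_16209). The call for *wnt11-1* was lost without any 1 of 5 of the 6 libraries, and that for dd_16209 without any 1 of 3. The highest adjusted p was 0.149 for *wnt11-1* and 0.152 for dd_16209, both without control RNAi replicate 2. With DESeq2 neither was called (adjusted p = 0.254 and 0.353). *wntP-2* was at 27.8 to 46.1 RPM in the 13 other control RNAi libraries and *wnt11-1* at 11.3 to 45.6 RPM, above the 3 controls labelled 24 hpa in both genes. The control RNAi libraries labelled 0, 6 and 48 hpa held dd_16209 at 9.71 to 30.2 RPM, also above the controls labelled 24 hpa. *wntless*, whose product carries Wnt ligands to the cell surface, stood at 7.21, 8.97 and 7.41 RPM, against 5.41, 2.66 and 3.81 RPM (0.83 ± 0.23, adjusted p = 0.03). Its call was lost without any 1 of 4 libraries, at an adjusted p of up to 0.13 (without control RNAi replicate 2).

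Wnt receptors were called in both directions. The frizzled contigs dd_7210 and dd_16571, with best human matches FZD4 and FZD5, fell by 0.81 and 0.97 on the log2 scale. dd_16926, dd_13186 and dd_11650, with best human matches FZD10, FZD9 and FZD10, rose by 1.18, 1.59 and 1.11. For dd_16926, with 8.15, 6.97 and 7.58 RPM in *activin-2* RNAi and 2.97, 2.48 and 3.38 RPM in control RNAi, the arms were well apart. Control RNAi libraries labelled 0, 6 and 48 hpa held dd_16926 at 7.03 to 11.4 RPM, dd_13186 at 5.69 to 12.8 RPM and dd_11650 at 35.9 to 127 RPM. The controls labelled 24 hpa lay below these ranges. They lay above the same libraries in dd_7210 (30.7 to 34.1 RPM, against 13.8 to 26.8 RPM) and dd_16571 (11.4 to 14.1 RPM, against 3.76 to 7.71 RPM). In dd_11650 control RNAi replicate 1 (15.9 RPM) was again higher than the other controls (6.43 and 6.34 RPM) and below the knockdown libraries (23.4, 20.4 and 23.7 RPM). The call for dd_11650 was lost without any 1 of 3 libraries, at an adjusted p of up to 0.107 (without control RNAi replicate 2). With DESeq2 it was lost too (0.133).

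Homeobox genes and other transcription factor genes moved in both directions. *OtxA* (dd_14633), of a homeobox family that patterns the head in other animals, stood at 4.72, 5.38 and 4.85 RPM in *activin-2* RNAi, against 15.8, 22.5 and 21.4 RPM in control RNAi (log2 fold change -2.10 ± 0.15, adjusted p = 3.8e-06). The 13 other control RNAi libraries held it at 4.86 to 8.34 RPM, so the 3 controls labelled 24 hpa were high and the 3 knockdown libraries were in the range of the rest. dd_25769, with best human match PDX1, also fell, with 0.686, 0.0996 and 0.511 RPM in *activin-2* RNAi, against 3.18, 6.71 and 6.01 RPM in control RNAi (-3.25 ± 0.43). Control RNAi libraries labelled 0, 6 and 48 hpa held dd_25769 at 0.149 to 1.18 RPM. Among basic helix-loop-helix factors, dd_8096 (best human match FERD3L) fell by 1.8 and dd_1854 (ASCL4) by 1.30.

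In contrast, 3 homeobox contigs with best matches among the human HOX genes rose. dd_2442, matched to HOXC6, stood at 12.9, 13.4 and 13.9 RPM in *activin-2* RNAi, against 5.30, 2.85 and 3.13 RPM in control RNAi, a log2 fold change of 1.67 ± 0.20 (adjusted p = 2.1e-04). dd_16227 (HOXB7) and dd_12467 (HOXC12) rose by 1.8 and 1.48, with the same high control RNAi replicate 1 (3.60 and 5.83 RPM, against 0.367 to 1.69 RPM in the other controls). Without that library their log2 fold changes were 3.10 and 2.42. Each call was lost without any 1 of 4 other libraries. The highest adjusted p was 0.108 for dd_16227 (without control RNAi replicate 2) and 0.134 for dd_12467 (without *activin-2* RNAi replicate 3). With DESeq2 both calls were lost too (0.234 for dd_16227 and 0.240 for dd_12467). dd_12317 (best human match MEOX1), *Sp6-9* (dd_7824), a zinc finger factor, *SOXP-3* (dd_5942), an HMG box factor, and dd_13065, a contig with a death domain, rose by 1.1, 1.11, 0.68 and 1.61. *Sp6-9* was named after its values were seen.

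For all the position and homeobox genes given above that were called, the difference of effects was called too, with the same sign. *ndl-3* differed most, by -4.90 ± 0.76 (adjusted p = 1.3e-05). Its own effects in the joint fit were -0.10 at wounds labelled 0 hpa, -0.32 at 6 hpa, 1.48 at 18 hpa, -3.82 at 24 hpa and 3.24 at 48 hpa. *OtxA* was near 0 at the 4 other labelled times, between 0.01 and 0.26, and *wntP-2* lay between -0.73 and 0.18 there. The difference for *wntless* (0.80) was lost without any 1 of 3 libraries, at an adjusted p of up to 0.168 (without control RNAi replicate 2). The plot of effects at each labelled time sets these genes side by side.

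**Figure D2:**
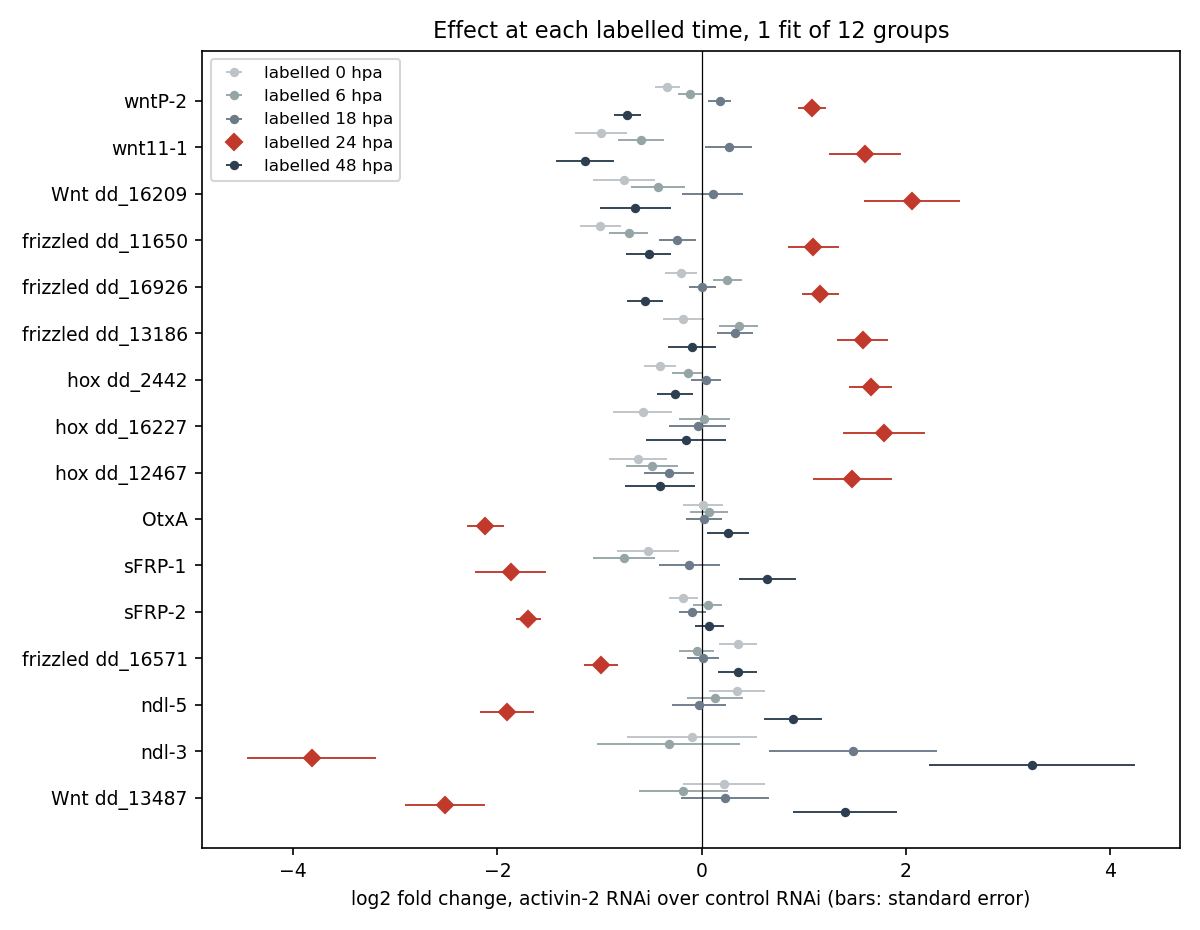
The horizontal axis is the log2 ratio, activin-2 RNAi to control RNAi, from 1 fit of 12 groups, with bars for the standard error; each gene has 1 point per labelled time, with wounds labelled 24 hpa as red diamonds. The diamonds lie right of 0 for wntP-2 (1.08 in this fit) and left of 0 for OtxA (-2.12) and ndl-3 (-3.82), where the points of most other times lie nearer to 0.

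The Wnt pathway and position list, taken from annotation terms, held 64 tested contigs. Of these 13 (20.3%, against 4.51% of all contigs) were higher, 8 (12.5%, against 7.96%) lower and 43 not called. Its median log2 fold change was -0.02, or 0.12 with library size only, beside 0.02 for all contigs tested with TMM. The shares over all contigs, 4.51% higher and 7.96% lower, are the comparison for every list below as well. The count higher was 5 without control RNAi replicate 2. The transcription factor list held 228 tested contigs, 27 higher (11.8%, against 4.51% of all contigs) and 13 lower (5.70%, against 7.96%), with a median of 0.08. With library size only, 61 were higher and 9 lower. It had 14 higher without control RNAi replicate 2 and 6 lower without *activin-2* RNAi replicate 3. The pole genes of the 2 body ends were scarce: *notum*, which encodes a secreted Wnt inhibitor, stood at 1.46, 1.1 and 1.45 RPM in *activin-2* RNAi, against 1.38, 1.1 and 0.931 RPM in control RNAi (log2 fold change 0.10 ± 0.32, adjusted p = 0.848). *wnt1* was under 1 RPM in each library (0.515, 0.399 and 0.170 RPM in *activin-2* RNAi, against 0.212, 0.0919 and 0.254 RPM in control RNAi) and was too low to be tested.

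**Figure D3:**
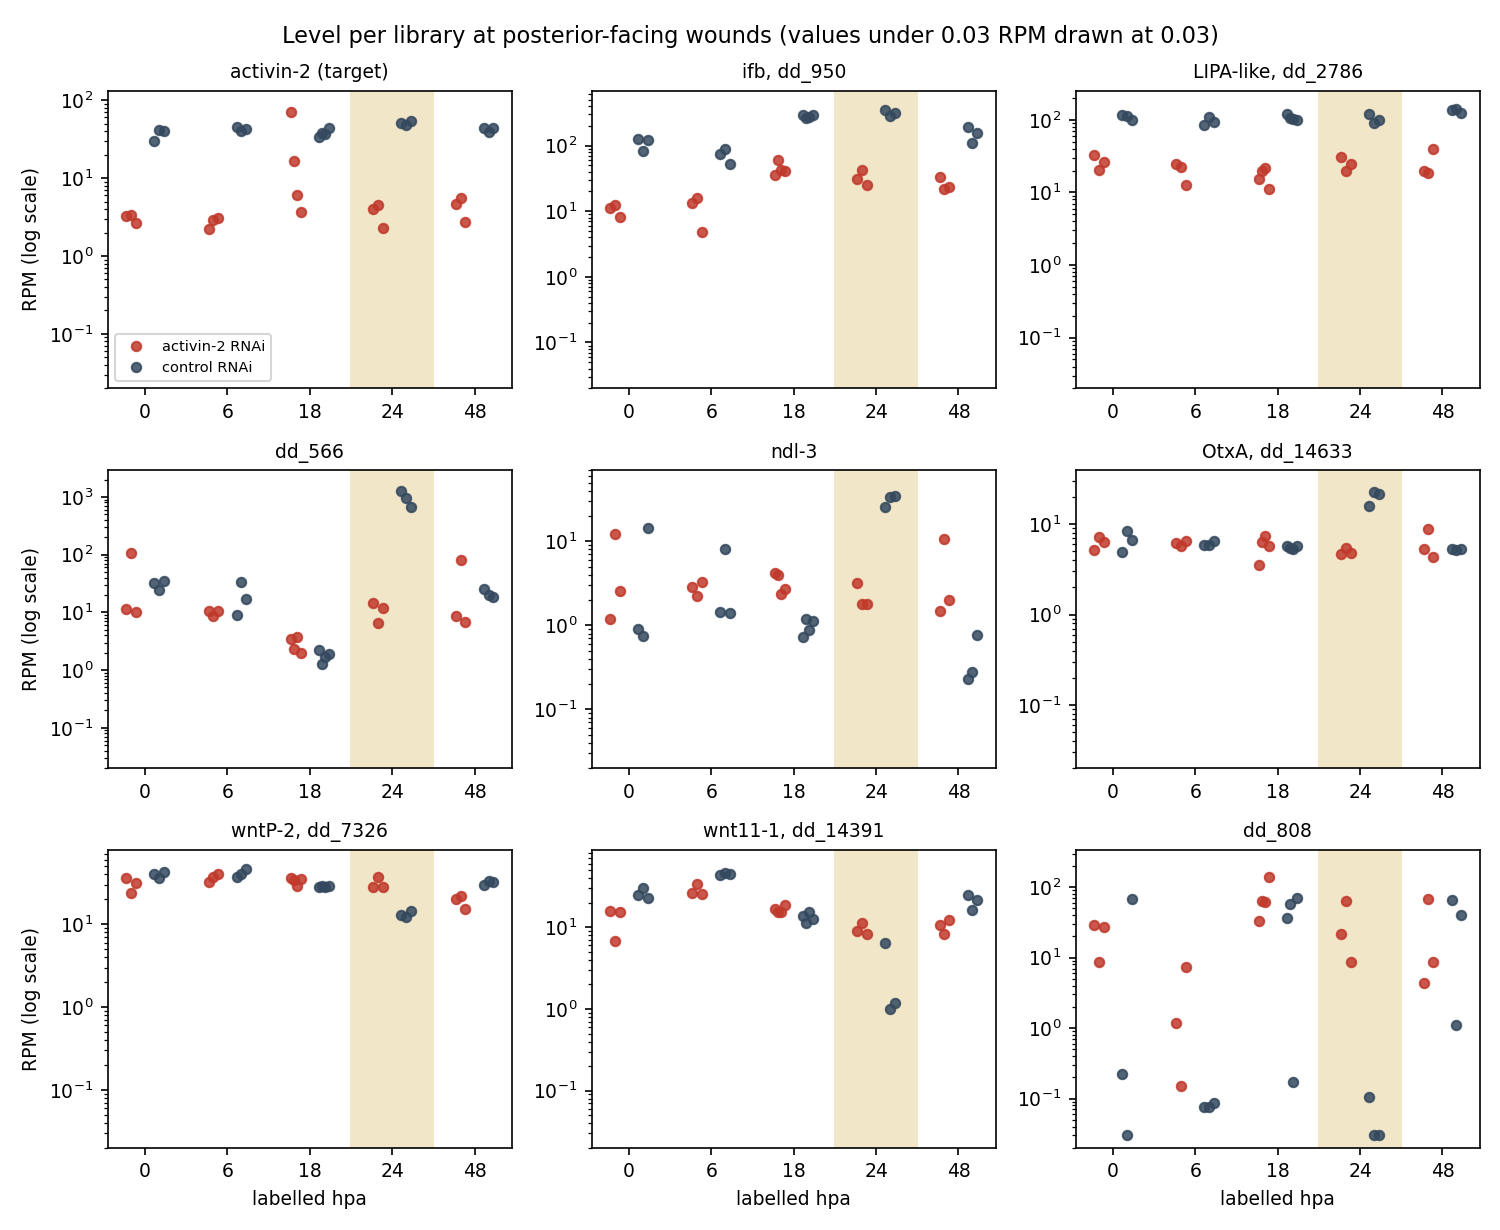
RPM on a log scale in every posterior-facing library, by labelled hpa, with activin-2 RNAi (red) left of control RNAi (dark) and the libraries labelled 24 hpa shaded; values under 0.03 RPM are drawn at 0.03. The target and the ifb contig dd_950 are low in activin-2 RNAi at labelled 24 hpa, as are dd_566, ndl-3 and OtxA, whose control RNAi points at 24 hpa stand above those of most other times.

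Other genes fell with no called difference from the other labelled times. Among them were contigs for intermediate filaments, the protein filaments that stiffen cells. The *ifb* contig dd_950 stood at 30.5, 42.4 and 24.9 RPM in *activin-2* RNAi, against 348, 280 and 318 RPM in control RNAi (log2 fold change -3.42 ± 0.16, adjusted p = 1.8e-07). Its effects at the other labelled times were -3.33, -2.55, -2.69 and -2.57, and the difference of effects was -0.65 ± 0.30 (adjusted p = 0.202). The *ifb* contigs dd_364 and dd_12254 fell by 1.2 and 1.8. Reads of such related contigs may have been shared between them by the mapping. In the list of intermediate filaments, 5 of 11 tested contigs (45.5%) were lower and 1 (9.09%) higher, with a median of -0.28. With library size only 4 were lower and 2 higher. The difference of effects was called for 2 of the 11, both positive.

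dd_496, which encodes an ShK domain, a fold found in toxins and secreted proteins, stood at 1.37, 0.697 and 0.937 RPM in *activin-2* RNAi, against 26.9, 18.9 and 11.0 RPM in control RNAi (log2 fold change -4.12 ± 0.39, difference of effects -0.32 ± 0.64). The lysosomal acid lipase match dd_2786 (LIPA in human, which splits cholesterol esters and fats) stood at 31.1, 20 and 24.3 RPM, against 119, 90.9 and 99.5 RPM (-2.16 ± 0.15, difference 0.19 ± 0.30). Arms that do not overlap were a condition for naming both contigs. The 13 other control RNAi libraries held dd_2786 at 83.5 to 140 RPM, a range that takes in the 3 controls labelled 24 hpa. The saposin-like dd_1706 (PSAPL1 in human), annotated as gut, fell by 1.12. Of 56 tested contigs in the lysosomal list, 16 (28.6%) were lower and 1 (1.79%) higher (median -0.19). With library size only 7 were lower and 3 higher. The count lower was 6 without control RNAi replicate 2. The sterol carrier match dd_73 (NPC2 in human) fell by 0.55 here and had effects of 0.58 to 0.76 at each other labelled time, a difference of -1.24 ± 0.20 (adjusted p = 5.4e-05).

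Within the TGF-β pathway, the antagonists and ligands that were called mostly fell. *Follistatin* (dd_9584), the Activin inhibitor, stood at 14.3, 13 and 11.5 RPM in *activin-2* RNAi, against 19.6, 19.8 and 20.7 RPM in control RNAi (log2 fold change -0.76 ± 0.11, adjusted p = 8.8e-04). *Admp-1b* (dd_12939_2), a BMP-like ligand of the body's dorsoventral axis, stood at 6.26, 6.77 and 5.45 RPM, against 10.9, 9.65 and 10.6 RPM (-0.88 ± 0.14, adjusted p = 0.0016). The difference of effects was -0.18 ± 0.14 and -0.19 ± 0.15 and was not called for either (adjusted p = 0.455 and 0.463). *Follistatin*, *Admp-1b* and the noggin contigs dd_15423 and dd_7999 were named after their values were seen.

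Noggins are secreted inhibitors of BMP ligands. *Noggin 1* (dd_15423) stood at 3.00, 2.59 and 2.73 RPM in *activin-2* RNAi, against 5.83, 5.88 and 5.33 RPM in control RNAi, a log2 fold change of -1.12 ± 0.18. *nlg2* (dd_7999) moved the other way, with 11.2, 11.7 and 11.7 RPM in *activin-2* RNAi, against 7.21, 5.51 and 5.84 RPM in control RNAi, a log2 fold change of 0.75 ± 0.15. The differences of effects were -1.16 for *Noggin 1* and 0.77 for *nlg2*, the second not called without control RNAi replicate 2 (adjusted p = 0.0776). *nlg-1* was not called, at 2.49, 1.79 and 2.04 RPM in *activin-2* RNAi, against 4.13, 2.57 and 2.62 RPM in control RNAi (-0.64 ± 0.28, adjusted p = 0.129). Among ligands, dd_12035, a contig with a TGF-β domain and no further name, stood at 0.429, 0.199 and 0.0852 RPM in *activin-2* RNAi, against 4.98, 4.13 and 4.82 RPM in control RNAi (-3.62 ± 0.38, adjusted p = 1.9e-05). Its difference of effects, -2.26, was not called without *activin-2* RNAi replicate 2 or without replicate 3 (adjusted p up to 0.0838). *inhibin-1* was not called, at 9.86, 9.27 and 7.84 RPM in *activin-2* RNAi, against 7.10, 4.5 and 5.08 RPM in control RNAi (0.55 ± 0.19, adjusted p = 0.077). Of the 53 tested contigs of the TGF-β list, 17 (32.1%) were lower and 2 (3.77%) higher, with a median of -0.14. With library size only 14 were lower and 6 higher. Of the 17, 8 are contigs named tolloid by the annotation, and without the tolloid-named contigs, a split made after seeing values, 9 of 44 were lower, 2 higher and the median was -0.03, which turned to 0.11 with library size only.

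The tolloid-named contigs are abundant astacin metalloproteases, a family of secreted enzymes that cut matrix proteins and, for tolloid, BMP inhibitors. dd_51_1 stood at 3498, 3269 and 3439 RPM in *activin-2* RNAi, against 10119, 8560 and 4793 RPM in control RNAi (log2 fold change -1.35 ± 0.22, adjusted p = 0.0018). Control RNAi replicate 3 was lowest of the controls in this contig, and likewise in dd_76, dd_85, dd_345 and dd_497, which fell by 1.1, 1.28, 1.5 and 1.34. In the fit of all 12 groups dd_76 was not called (adjusted p = 0.0667). It still lay above all 3 knockdown libraries in each of them. In the family as a whole, chosen after values were seen, 7 of 12 tested contigs were lower and 0 higher. The differences of effects of these 5 contigs were -0.03 to -0.52 and none was called, with adjusted p from 0.526 to 0.983. Their reads may be shared between near-identical contigs.

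Matrix metalloproteases shared this profile. *mmp1* (dd_274) stood at 3190, 2792 and 2836 RPM in *activin-2* RNAi, against 7626, 6261 and 3579 RPM in control RNAi (log2 fold change -1.14 ± 0.22), and *mmp2* (dd_321) at 1752, 1614 and 1666 RPM, against 4107, 3376 and 2037 RPM (-1.07 ± 0.20). Control RNAi replicate 3 was again the lowest control, and in the fit of all 12 groups *mmp2* was not called (adjusted p = 0.0733). Both, with dd_51_1, dd_76 and dd_85, were named after their values were seen.

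Structural matrix genes fell more evenly across the controls. dd_1330 (best human match NID2, nidogen, which links basement membrane proteins) stood at 54.2, 52.6 and 52.7 RPM in *activin-2* RNAi, against 113.9, 113.5 and 128 RPM in control RNAi (log2 fold change -1.29 ± 0.07, adjusted p = 4.8e-07). dd_2649 (FBN2, fibrillin, a microfibril protein) stood at 186, 165 and 180 RPM, against 510, 583 and 723 RPM (-1.91 ± 0.11). dd_1748, another contig with best match FBN2, varied within the knockdown arm, with 236, 43.8 and 72.6 RPM in *activin-2* RNAi, against 834, 1156 and 875 RPM in control RNAi (-3.15 ± 0.47, and -4.18 without *activin-2* RNAi replicate 1). For these 3 the difference of effects was called and negative (-1.04, -1.70 and -3.59). The control RNAi libraries labelled 0, 6 and 48 hpa held dd_1330 at 59.4 to 77.8 RPM, dd_2649 at 183 to 275 RPM and dd_1748 at 15.1 to 409 RPM. The controls labelled 24 hpa lay above these ranges. dd_7096 (LOXL2, a lysyl oxidase, which crosslinks collagen) rose, with 36.6, 34 and 43.2 RPM in *activin-2* RNAi, against 17.7, 22.1 and 17.9 RPM in control RNAi (0.83 ± 0.12), and had effects of 0.61 to 0.72 at each other labelled time. dd_1748 and dd_7096 were named after their values were seen. In the matrix list 26 of 82 tested contigs (31.7%) were lower and 8 (9.76%) higher, with a median of -0.20. With library size only 20 were lower and 16 higher, and without control RNAi replicate 2 there were 3 higher.

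Lectins, which bind sugars, and protease inhibitors had 15 of 30 tested contigs (50%) lower and 0 higher, with a median of -0.45. With library size only 14 were lower and 2 higher. The summed level of the 35 counted contigs of this list went the other way in part, at 14324, 38780 and 9179 RPM in *activin-2* RNAi, against 10580, 9321 and 9249 RPM in control RNAi, so that *activin-2* RNAi replicates 1 and 2 lay above every control. dd_57, annotated as a serine protease inhibitor with a Kunitz domain, stood at 13, 1.79 and 6.47 RPM in *activin-2* RNAi, against 117, 104 and 101 RPM in control RNAi (log2 fold change -4.00 ± 0.34, and -4.74 without *activin-2* RNAi replicate 1, difference of effects -3.06). Of the lectin-like contigs, dd_79 stood at 1.97, 0.199 and 2.13 RPM, against 16.7, 7.53 and 10.3 RPM (-2.94 ± 0.44), and dd_9200 and dd_3266 fell by 2.01 and 1.46, with no called difference of effects for the 3. These contigs may share reads.

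Muscle genes were touched unevenly. The most affected of the contigs annotated as muscle, named after their values were seen, was dd_628, with thrombospondin repeats and SCO-spondin as best human match. It stood at 302, 346 and 343 RPM in *activin-2* RNAi, against 1987, 2459 and 2196 RPM in control RNAi (log2 fold change -2.89 ± 0.10, adjusted p = 3.8e-08), where the 13 other control RNAi libraries held 240 to 566 RPM. *FHL-1* (dd_3385), with LIM domains, stood at 5.92, 4.58 and 6.13 RPM, against 25.4, 29.2 and 24.2 RPM (-2.34 ± 0.14), and the tetraspanin dd_6981 fell by 2.06. All 3 had a called negative difference of effects.

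Contractile genes fell by less. The myosin heavy chain *MhcA* (dd_249) stood at 2199, 2567 and 2289 RPM in *activin-2* RNAi, against 3642, 3494 and 3152 RPM in control RNAi (log2 fold change -0.69 ± 0.10), and the calponin dd_333, an actin-binding protein of smooth muscle, fell by 0.47. A myosin light chain match (dd_5491, MYL1 in human) rose by 0.78. In the contractile list 19 of 68 tested contigs (27.9%) were lower and 1 (1.47%) higher, with a median of -0.12. The median turned to 0.02 with library size only, when 11 were lower and 5 higher. Without *activin-2* RNAi replicate 3 there were 9 lower. Over all 820 tested contigs annotated as muscle, 111 (13.5%, against 7.96% of all contigs) were lower with TMM. The share higher, 39 contigs (4.76%), was near that of all contigs (4.51%). This direction flipped to 101 higher and 74 lower with library size only. Without *activin-2* RNAi replicate 3 there were 73 lower, and without control RNAi replicate 2 there were 20 higher. *myoD*, a muscle regulator, was not called, at 20.2, 19.5 and 19.2 RPM in *activin-2* RNAi, against 19.5, 17.6 and 16.2 RPM in control RNAi (0.01 ± 0.11, adjusted p = 0.979).

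Many neuropeptide precursors fell. The 40 contigs annotated as neuropeptide or prohormone, a list made after values were seen and given without a test, had 35 tested members, 20 of them lower and 0 higher, with a median log2 fold change of -0.70 (-0.56 with library size only). The cerebral peptide prohormone dd_4046 had 0 reads in all 3 *activin-2* RNAi libraries and 6.25, 10.4 and 11.6 RPM in control RNAi, at least 107-fold lower when set against a floor of 3 reads over the arm. The prohormone dd_3845 stood at 0.172, 0 and 0.170 RPM, against 6.78, 7.62 and 8.04 RPM (log2 fold change -4.77 ± 0.37, adjusted p = 1.1e-06).

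At the other labelled times, 13 *activin-2* RNAi libraries held each of them at up to 3.11 RPM, and 13 control RNAi libraries held dd_4046 at up to 0.928 RPM and dd_3845 at up to 0.303 RPM, below the controls labelled 24 hpa. More abundant precursors fell by less. The prohormone dd_541 stood at 10.7, 10.8 and 9.11 RPM in *activin-2* RNAi, against 21.6, 29.0 and 22 RPM in control RNAi (log2 fold change -1.38 ± 0.14). *Neuropeptide-2* (dd_1015), dd_1538 and dd_1520 fell by 1.03, 1.15 and 1.22, and dd_1902 and dd_9341, both under 7 RPM throughout, by 1.79 and 2.10.

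The enzyme that cuts such precursors, *prohormone convertase 2* (dd_1566), stood at 127, 119 and 118 RPM in *activin-2* RNAi, against 179, 206 and 169 RPM in control RNAi (log2 fold change -0.75 ± 0.09, adjusted p = 2.6e-04). In the control RNAi libraries labelled 0, 6 and 48 hpa the convertase stood at 143 to 167 RPM, below the controls labelled 24 hpa. The precursors from dd_541 on and the convertase were named after their values were seen. For the convertase and the precursors dd_541, dd_1015, dd_1538, dd_1520, dd_1902, dd_9341 and dd_3845, the difference of effects was called and negative.

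Other neural genes fell too. Of the contigs annotated as neural, and named after their values were seen, the tetraspanin dd_2578 stood at 34.5, 34.2 and 35.8 RPM in *activin-2* RNAi, against 89.2, 106 and 112 RPM in control RNAi (log2 fold change -1.69 ± 0.08), and the calcium-binding reticulocalbin dd_801 at 112, 122 and 105 RPM, against 268, 265 and 338 RPM (-1.5 ± 0.09). *elav2* (dd_8376), an RNA-binding protein gene of neurons, stood at 31.4, 33.0 and 32.6 RPM, against 62.1, 56.9 and 59.3 RPM (-1.02 ± 0.08). Control RNAi libraries labelled 0, 6 and 48 hpa held dd_2578 at 38.8 to 53.9 RPM, dd_801 at 166 to 240 RPM and *elav2* at 23.3 to 43.9 RPM. In all of these genes the controls labelled 24 hpa lay above that range. From the same list of neuronal genes as *elav2*, the calcium-activated potassium channel dd_10277 (KCNN2 in human), which the cell type annotation places in neoblasts, and the vesicular transporter match dd_9843 (SLC17A8 in human) fell by 1.81 and 1.06.

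Of 262 tested contigs annotated as neural, 52 (19.8%) were lower and 8 (3.05%) higher, with a median of -0.15. With library size only 35 were lower and 19 higher, and without control RNAi replicate 2 there were 30 lower. In the list of neuronal channels, receptors and synaptic proteins, 51 of 306 (16.7%) were lower and 15 (4.90%) higher with TMM. This flipped to 30 higher and 28 lower with library size only. Without *activin-2* RNAi replicate 3 there were 25 lower, and without control RNAi replicate 2 there were 2 higher. Summed over the annotated neural contigs, the level was 8731, 9893 and 9649 RPM in *activin-2* RNAi and 7879, 8281 and 8394 RPM in control RNAi, so the sum lay higher in the knockdown libraries while more contigs were called lower.

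**Figure D4:**
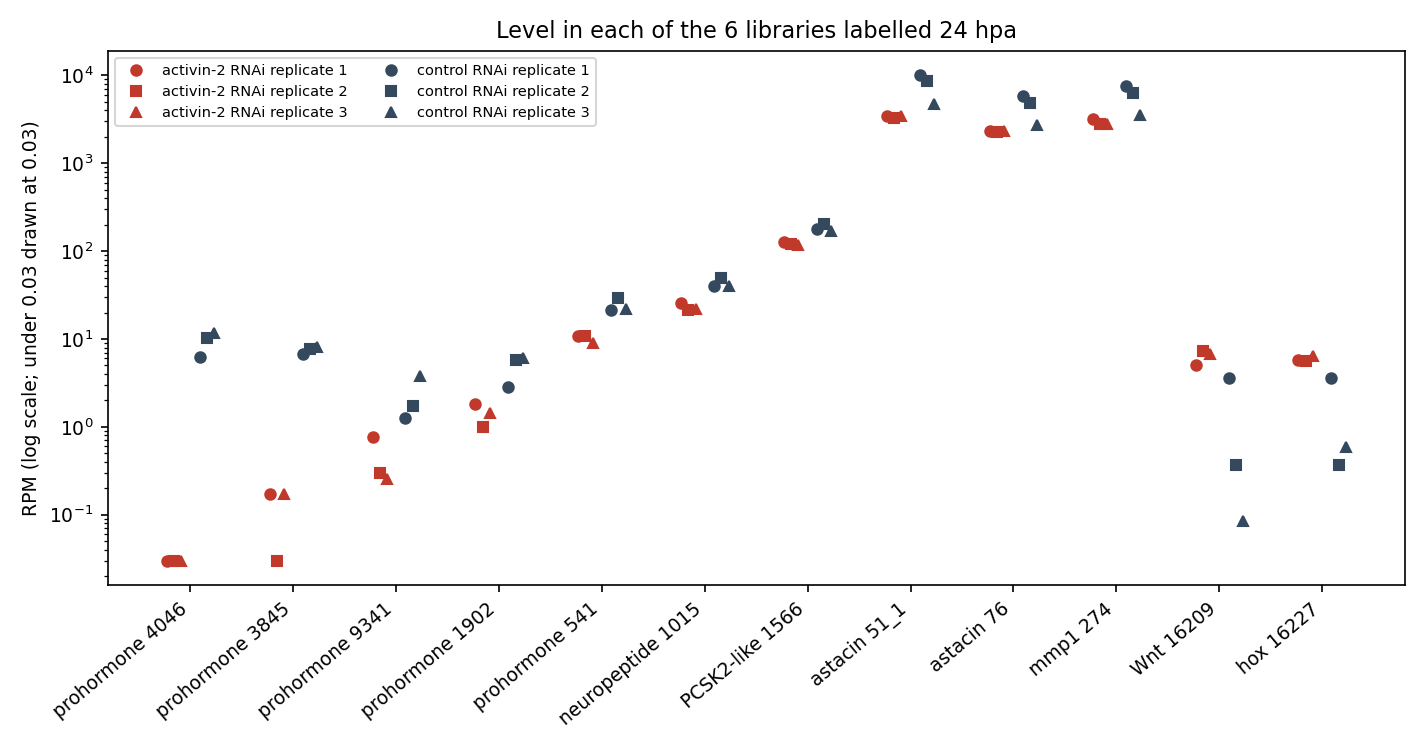
RPM on a log scale in each of the 6 libraries labelled 24 hpa, with activin-2 RNAi (red) left of control RNAi (dark), 1 symbol per replicate and values under 0.03 RPM drawn at 0.03. The prohormone dd_4046 had 0 reads in all activin-2 RNAi libraries, and in the astacins control RNAi replicate 3 (triangles) lies below the other controls and above the knockdown libraries.

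The largest rises were a set of contigs that were almost absent from the controls. dd_808, with a peptidase M49 domain, stood at 21.7, 63.9 and 8.60 RPM in *activin-2* RNAi, against 0.106, 0 and 0 RPM in control RNAi, 995 reads against 1 (log2 fold change 7.11 ± 1.36, adjusted p = 6.2e-04). The ratio of *activin-2* RNAi over control RNAi after scaling by depth was 956 (95% exact interval 171 to 37813, counting error only). dd_531, dd_1320, dd_1283 and dd_793 rose by 6.96, 6.59, 4.80 and 4.71.

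In all 5, *activin-2* RNAi replicate 2 was highest and replicate 3 lowest, and without replicate 2 the log2 fold changes were 6.10 (dd_808), 5.89 (dd_531), 5.64 (dd_1320), 3.92 (dd_1283) and 3.98 (dd_793). They were not particular to the knockdown: dd_808 exceeded 1 RPM in 13 of 17 other *activin-2* RNAi libraries and in 7 of 17 other control RNAi libraries. The difference of effects was not called for any of the 5 (adjusted p between 0.423 and 1). Markers of the pharynx, from which tissue could be carried over by the cut, also varied by library. dd_554 stood at 48.6, 39.3 and 6.98 RPM in *activin-2* RNAi, against 4.66, 16.4 and 14.9 RPM in control RNAi (1.23 ± 0.54, adjusted p = 0.158). dd_561 (9.45 to 69.4 RPM in *activin-2* RNAi, 4.24 to 20.7 RPM in control RNAi), dd_372 (0.341 to 29.1 and 1.17 to 31.7 RPM) and dd_8673 (1.19 to 11.2 and 1.06 to 6.80 RPM) were not called either, with log2 fold changes of 1.45, -0.48 and 0.53. Without *activin-2* RNAi replicate 3, dd_554 and dd_561 were called higher (1.71, adjusted p = 0.0056, and 1.94, adjusted p = 0.0071), as they were with no filter on low counts. In these 4 markers *activin-2* RNAi replicate 1 was highest of its arm and control RNAi replicate 1 lowest of its own. The source of the pharynx signal and its part in the rises were not tested.

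*Plasminogen-1* (dd_9120_1), a contig with a kringle domain as found in clotting and clot-dissolving proteins, rose in all knockdown libraries alike. It stood at 77.8, 104 and 73.4 RPM in *activin-2* RNAi, against 1.91, 1.01 and 2.96 RPM in control RNAi (log2 fold change 5.16 ± 0.23, adjusted p = 7.8e-08). The 13 other control RNAi libraries held it at 3.03 to 203 RPM and the 13 other *activin-2* RNAi libraries at 15.3 to 192 RPM, so the 3 controls labelled 24 hpa lay below all of these, while 4 anterior-facing control RNAi libraries labelled 18 hpa were as low, at 1.38 to 2.37 RPM. Its difference of effects was 4.68 ± 0.79 (adjusted p = 7.7e-05).

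dd_636 (best human match APOB, a lipid carrier), annotated as gut, stood at 2566, 2528 and 3499 RPM in *activin-2* RNAi, against 819, 839 and 1010 RPM in control RNAi (log2 fold change 1.55 ± 0.13, difference of effects 1.07 ± 0.17). dd_21548 (GLIPR2 in human, of the CAP family of secreted proteins) stood at 5.66, 7.97 and 5.71 RPM, against 1.17, 1.38 and 1.35 RPM (2.02 ± 0.23). dd_238, at 4.29, 4.88 and 6.39 RPM in *activin-2* RNAi and 0, 0.0919 and 2.71 RPM in control RNAi, rose by 2.06 ± 0.65 (adjusted p = 0.045), or by 4.43 without control RNAi replicate 3. Its call was lost without any 1 of 4 libraries, at an adjusted p of up to 0.141 (without control RNAi replicate 2), and with DESeq2 (0.415). dd_238_1, a contig of the same assembly component and best human match zonadhesin, named after its values were seen, stood at 1945, 3105 and 3045 RPM in *activin-2* RNAi, against 575, 781 and 804 RPM in control RNAi (adjusted p = 4.2e-05), and the mapping may have shared reads between the 2 contigs. dd_636, like dd_1706 above, was named after its values were seen. Of 419 tested contigs annotated as gut, 40 (9.55%, against 4.51% of all contigs) were higher (median 0.03). The share lower, 37 contigs (8.83%), was near that of all contigs (7.96%). With library size only 103 were higher and 21 lower. Without *activin-2* RNAi replicate 3 there were 14 higher, and without control RNAi replicate 2 there were 21 lower. In a second gut class, 11 of 394 (2.79%) were higher and 47 (11.9%) lower with TMM, which flipped to 36 higher and 27 lower with library size only.

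The wound-induced list had calls in both directions. Of 123 tested contigs of the list, 21 (17.1%, against 4.51% of all contigs) were higher and 14 (11.4%, against 7.96%) lower, with a median of 0.09. With library size only 35 were higher and 10 lower. Without control RNAi replicate 2 there were 13 higher, and without control RNAi replicate 1 there were 5 lower. Among those named after their values were seen, the Krüppel-like factor dd_3638 stood at 76.4, 48.5 and 62.5 RPM in *activin-2* RNAi, against 20.1, 18.5 and 15.7 RPM in control RNAi (log2 fold change 1.65 ± 0.16), and the unannotated dd_1531 at 147, 157 and 152 RPM, against 44.5, 45.5 and 47.7 RPM (1.58 ± 0.07). The methyltransferase-like dd_14219 rose by 1.66. The 3 had a called positive difference of effects (1.13, 1.02 and 1.12).

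Several named wound genes did not pass, among them *fos-1*. It stood at 99.2, 75.1 and 76.4 RPM in *activin-2* RNAi, against 79.9, 74.3 and 74.9 RPM in control RNAi (log2 fold change -0.01 ± 0.11, adjusted p = 0.966). *egr-2*, EGR-like 1, *hadrian* and the KAL1-like contig had log2 fold changes of 0.34, -0.60, -0.40 and 0.15 with adjusted p between 0.119 and 0.517, and *runt-1*, at 0.341 to 0.772 RPM in *activin-2* RNAi and 0.318 to 0.827 RPM in control RNAi, was too low to test. *fascin-1*, an actin-bundling gene, fell by 0.50 (160, 127 and 136 RPM in *activin-2* RNAi, against 179, 170 and 195 RPM in control RNAi). dd_9204, dd_4944 and the SVOPL-like contig fell by 1.46, 0.59 and 0.71, and for dd_4944 and the SVOPL-like contig the call was lost without any 1 of 4 libraries, at an adjusted p of up to 0.073 (dd_4944, without *activin-2* RNAi replicate 3) and 0.087 (SVOPL-like, without control RNAi replicate 1).

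Genes of dividing cells and of general metabolism are set beside the shares over all contigs, 4.51% higher and 7.96% lower. *smedwi-1*, the marker of planarian stem cells (neoblasts), stood at 734, 704 and 727 RPM in *activin-2* RNAi, against 555, 574 and 602 RPM in control RNAi, with a log2 fold change of 0.18 ± 0.07 after TMM scaling (adjusted p = 0.114) and of 0.32 with library size only (adjusted p = 0.0085). Its RPM did not overlap between the arms. Of 358 tested contigs annotated as neoblast, 16 were higher (4.47%) and 17 lower (4.75%), of 70 for DNA replication and the cell cycle 4 higher and 1 lower, and of 64 Piwi and germ granule contigs 2 higher and 2 lower. Of 96 ribosomal protein contigs 8 were higher (8.33%) and 2 lower (2.08%), of 64 respiratory chain contigs 4 higher and 1 lower, of 35 proteasome contigs 1 higher and 0 lower, and of 25 histone contigs 0 in either direction. With library size only, the higher counts of these lists came to 41, 9, 16, 22, 16, 11 and 4. Without *activin-2* RNAi replicate 2 there was 1 ribosomal contig higher, and without control RNAi replicate 2 there were 6 neoblast contigs higher.

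The lists that remain had more contigs lower than higher, as had all contigs tested (7.96% lower and 4.51% higher). Of 127 tested contigs for cilia, 20 (15.7%) were lower and 2 higher (median -0.10, or 0.04 with library size only, when 12 were lower and 10 higher), among them tektin 3 (dd_6883), the sperm-tail protein match dd_8903 (ODF3 in human) and a beta-tubulin (dd_471), which fell by 0.72, 0.92 and 0.73. Without control RNAi replicate 3 the cilia counts were 28 lower and 10 higher, and without *activin-2* RNAi replicate 3 they were 10 lower and 1 higher. Contigs with TRAF domains, adaptors of TNF receptor signalling, had 15 of 137 lower (10.9%) and 4 higher with TMM, flipping to 17 higher and 8 lower with library size only, and *TRAF-2* (dd_3952) fell by 0.83, with effects of -0.63 to -0.89 at the other labelled times. Heat shock and folding proteins (19 of 125 lower, or 15.2%, and 9 higher) flipped to 27 higher and 14 lower with library size only, solute carriers (26 of 253 lower, or 10.3%, and 12 higher) to 50 higher and 13 lower, and cytochrome P450 and glutathione enzymes (7 of 50 lower, or 14%, and 3 higher) to 10 higher and 4 lower. Leaving out 1 library brought the lower counts down to 5 for TRAF domains (without *activin-2* RNAi replicate 2), 9 for heat shock (without *activin-2* RNAi replicate 3), 14 for solute carriers (without control RNAi replicate 2) and 3 for cytochrome P450 (without control RNAi replicate 1).

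**Figure D5:**
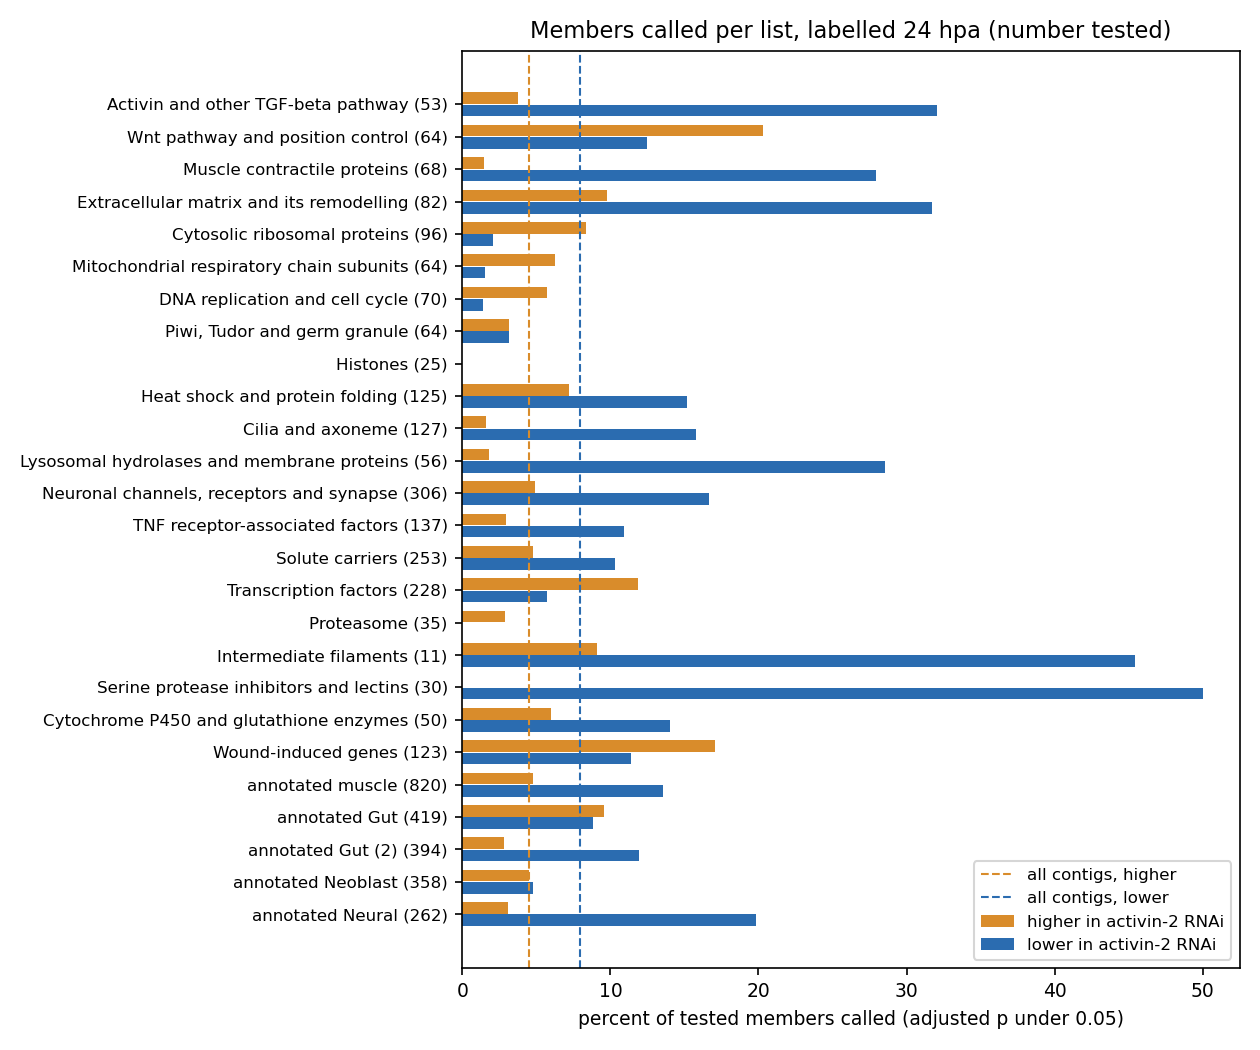
Bars show the percent of tested members of each list that were called higher (orange) or lower (blue) in activin-2 RNAi at labelled 24 hpa, with the number tested in parentheses and dashed lines at 4.51% and 7.96% for all contigs. Serine protease inhibitors and lectins (50% lower) and intermediate filaments (45.5% lower, 5 of 11) stand furthest from the line for lower contigs, and histones have no bar.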

How the data were processed

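The authors extracted polyA RNA from wound tissue, prepared stranded libraries and mapped reads to the dd_Smed_v6 transcriptome. The submitters' processing notes name CASAVA 1.9, cutadapt 1.8, Bowtie 1.2, SAMtools 1.6 and DESeq. The authors deposited raw read counts per contig, which were used as they stand. Another deposited table holds the authors' own fold changes and p-values, which were not used, and annotation columns, which were. A human match was given for 56.28% of tested contigs and a planarian name for 10.4%. No sequences or coordinates were used here.

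The 6 libraries held 9433327 to 11820494 counts. Counts were tested with edgeR 4.0.16 in R 4.3.3 (quasi-likelihood, TMM scaling, filterByExpr at its settings of 10 reads for a library and 15 in total, prior count 2) between 3 *activin-2* RNAi and 3 control RNAi libraries, at a Benjamini-Hochberg adjusted p of 0.05. The difference of effects was a contrast in 1 fit of 12 groups and 40 libraries. An exact permutation test of 3 against 3 cannot go below a two-sided p of 0.1 and was not used for calls. On simulated counts 93.5% of 200 contigs changed by 1.5 on the log2 scale were recovered in the comparison of 3 with 3 libraries, where 10.1% of 208 calls were false. For the difference of effects 73% were recovered and 5.19% of 154 calls were false. These shares of false calls were above the threshold of 0.05. The simulations changed only 200 contigs, at random in either direction, whereas the data had 2020 calls that leaned lower. They therefore cannot speak to how the calls depend on scaling.

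The members and lists were chosen with earlier results of these data known. Named were a fixed set of pathway, wound and marker contigs, and contigs picked by rule. The rule took called contigs of at least 1 CPM whose arms did not overlap, as held for 721 of 731 higher and 1159 of 1289 lower contigs. From these came the 10 largest rises, the 10 largest falls and up to 4 members per list by smallest p. For contigs named by this rule, arms that do not overlap are thus no finding. Up to 5 largest differences of effects in each direction were added. List members named by the rule in ribosomal, respiratory, replication, Piwi, heat shock, solute carrier and similar lists are given as counts only. Contigs chosen after their values were seen are marked as such. Intervals for low counts are exact at 95% and cover counting error only. Alternatives were DESeq2 1.42.0, RLE factors, library size only, no filter, a joint fit of all 12 groups, a block for replicate number, no anterior-facing groups, and leaving out each library. The fit without groups labelled 18 hpa and the library size counts per list were added after seeing the data.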

Additional observations from a re-analysis of the deposited data

Results flagged for a closer look

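The results below share 1 reason for a closer look: in the joint fit, the *activin-2* RNAi effect labelled 24 hpa differed from the mean effect at the other posterior-facing wounds (0, 6, 18 and 48 hpa) at an adjusted p under 0.05 (edgeR). Each value is that difference on the log2 scale, positive where the effect labelled 24 hpa was the higher. Groups of 3 libraries were too small to look for single libraries far from the rest.

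Among genes of the Wnt pathway and body position the difference was 2.49 for dd_16209, 2.21 for *wnt11-1* (dd_14391), 1.33 for *wntP-2* (dd_7326) and 0.80 for *wntless*. It was -2.93 for the Wnt dd_13487, -1.68 for *sFRP-1* and -1.66 for *sFRP-2* (dd_8832). The trunk and head genes *ndl-3* and *ndl-5* (dd_5102) had -4.90 and -2.24. The frizzled contigs had 1.71 (dd_11650), 1.47 (dd_13186), 1.29 (dd_16926), -0.75 (dd_7210) and -1.15 (dd_16571).

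Among transcription factors it was 1.98 for dd_16227, 1.93 for dd_12467, 1.85 for dd_2442, 1.44 for dd_12317, 1.26 for *Sp6-9* (dd_7824), 1.13 for dd_3638 and 0.54 for *SOXP-3* (dd_5942). It was -3.64 for dd_25769, -2.21 for *OtxA* (dd_14633), -2.0 for dd_8096 and -1.25 for dd_1854.

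Among secreted ligands and inhibitors the values were -2.26 for dd_12035, -1.16 for *Noggin 1* (dd_15423), 0.77 for *nlg2* (dd_7999) and -3.06 for the Kunitz contig dd_57. Prohormones had -6.47 (dd_3845), -3.16 (dd_9341), -1.92 (dd_1902), -1.10 (dd_1520), -1.01 (dd_541), -0.89 (dd_1015) and -0.82 (dd_1538), and their convertase dd_1566 had -0.66. Other neural genes had -1.91 (dd_10277), -1.45 (dd_2578), -1.30 (dd_801), -0.64 (dd_8376) and -0.58 (dd_9843).

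Matrix and muscle genes had -3.59 (dd_1748), -2.64 (dd_628), -1.90 (dd_6981), -1.70 (dd_2649), -1.55 (dd_3385) and -1.04 (dd_1330), and the tubulin dd_471 had -0.54. Lipid-related contigs had 1.07 (dd_636) and -1.24 (dd_73). *Plasminogen-1* (dd_9120_1) had 4.68, and dd_13065, dd_14219 and dd_1531 had 1.99, 1.12 and 1.02. The unannotated contigs with the deepest falls had -6.81 (dd_566), -6.65 (dd_13594), -6.49 (dd_5811), -5.97 (dd_9223), -5.08 (dd_240) and -3.46 (dd_331). In dd_13594, dd_9223 and dd_5811, *activin-2* RNAi replicate 2 labelled 48 hpa held 9.02, 8.56 and 2.54 RPM. The other *activin-2* RNAi libraries labelled 48 hpa held these contigs at 0 to 0.536 RPM. How far the differences rest on that library was not tested. The pharynx marker dd_8673 had -1.99, with an effect labelled 24 hpa that was itself not called. Its difference kept the call in only 5 of 11 alternatives. Among those that lost it were the fit without the groups labelled 18 hpa (-1.35, adjusted p = 0.246), the fit without anterior-facing groups and DESeq2.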

How the results depend on the processing

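Of 2020 contigs called, 731 higher and 1289 lower, DESeq2, RLE factors, no filter and all 12 groups in 1 fit gave counts within 1.5 times in total and in each direction. Library size only gave 3292, 2459 higher and 833 lower. With the replicate number as a block there were 2759, 1159 higher and 1600 lower. The numbers give no pairing, since deviations of same-numbered libraries correlated at 0.18, 0.03 and 0.09. Leaving out 1 library gave 998 to 3050 in total, 207 to 1305 higher and 791 to 1745 lower. For the difference of effects it gave 575 to 1837 in total, 157 to 689 positive and 415 to 1148 negative. The other alternatives for the difference kept its counts within 1.5 times. The cause of these moves was not tested.

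Of 115 single contigs tested, 100 were called. Of these 89 stayed called with their direction in each alternative run, 11 lost the call in at least 1 and 0 reversed. Of 62 called for the difference, 57 stayed called and 5 lost the call in at least 1. Of those not called, 5 were called in at least 1 alternative, at an adjusted p (edgeR) down to 0.021 for *inhibin-1*, 0.0011 for EGR-like 1, 0.0056 for dd_554, 0.0061 for dd_561 and 0.0085 for *smedwi-1*, and 6 changed sign. *fos-1* was at 0.13 with library size only and at -0.16 to 0.063 without 1 library. *myoD* was at -0.012 with DESeq2, -0.0021 with RLE factors, -0.012 with all 12 groups and -0.096 to 0.080 without 1 library. Leaving out 1 library gave -0.049 to 0.23 for *notum*, -0.015 to 0.25 for KAL1-like, -1.89 to 0.34 for dd_372 and -0.23 to 1.18 for dd_8673. At this depth *wnt1* and *runt-1* were too low to test.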
